A study of Homo sapiens with 14 samples.

Results

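A set of 5 genes that drive or brake entry into the division cycle was examined in chromatin immunoprecipitation sequencing (ChIP-seq) peak lists. They were CCND1, MYC and CCNE1, which drive entry, and CDKN1A and CDKN1B, which hold it back, and all 5 of 5 were found in the RefSeq gene table among 19821 protein-coding genes. They were chosen by name, as cell cycle genes under progestin control in T47D, and every region of the 4 lists that overlapped the gene span, widened by 50 kb at both ends, was taken.

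T47D is an established line of oestrogen receptor- and progesterone receptor-positive breast cancer cells. All cells were T47D, given for 1 h either ethanol (vehicle) or progesterone (P4). Chromatin was precipitated with an antibody against the progesterone receptor (PR) or against POLR3A, a catalytic subunit of RNA polymerase III. Each antibody under each treatment had 3 replicate libraries and 1 peak list, and a pooled input had been sequenced for each treatment. No value per replicate was used here, so no difference between treatments could be set against the spread between replicates, and none of the comparisons below carries a test. Read counts are not part of these lists, and the depth behind a region is therefore unknown.

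Counted over chromosomes 1 to 22 and X, there were 38933 PR regions in the vehicle list and 111515 in the P4 list, with 29161 and 47904 for POLR3A, so the P4 lists were 2.86 and 1.64 times as long. Every count below is read against that difference in list length. Each region carries the authors' fold enrichment over background and a −log10 q-value, the strength of the call after correction for multiple testing. Both were used to describe regions within a list, and they measure no change between lists.

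PR is a nuclear receptor that binds DNA when it holds progesterone, either directly at progesterone response elements or through other factors such as Sp1. In T47D cells progestins are known to speed cells already in G1 into S phase and then to arrest them in the next G1. Cyclin D1, encoded by CCND1, activates CDK4 and CDK6, and cyclin E1, encoded by CCNE1, activates CDK2. MYC is a transcription factor that drives growth and also raises RNA polymerase III output. CDKN1A encodes p21 and CDKN1B encodes p27, inhibitors that bind cyclin-CDK complexes.

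Promoter sequence was read to show what lay under the PR summits at the CDKN1A start. The RefSeq promoter table held 3 of the 5 genes, CCNE1, CDKN1A and CDKN1B, all on the plus strand. Below are the 250 bases before each annotated start in GRCh38.p14, written 5′ to 3′, at chr6:36678464-36678713 for CDKN1A, chr19:29811741-29811990 for CCNE1 and chr12:12717118-12717367 for CDKN1B. Capitals mark GGGCGG on either strand, the core of a GC box, which Sp1 binds. These sequences contrast a promoter under a PR region in both treatments (CDKN1A), one beside a PR region under P4 alone (CCNE1) and one with no region near it (CDKN1B).
CDKN1A: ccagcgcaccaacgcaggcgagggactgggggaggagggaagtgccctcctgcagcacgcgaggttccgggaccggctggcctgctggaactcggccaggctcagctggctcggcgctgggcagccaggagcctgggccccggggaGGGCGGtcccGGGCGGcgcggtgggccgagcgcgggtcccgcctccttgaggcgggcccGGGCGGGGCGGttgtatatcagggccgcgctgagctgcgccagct
CCNE1: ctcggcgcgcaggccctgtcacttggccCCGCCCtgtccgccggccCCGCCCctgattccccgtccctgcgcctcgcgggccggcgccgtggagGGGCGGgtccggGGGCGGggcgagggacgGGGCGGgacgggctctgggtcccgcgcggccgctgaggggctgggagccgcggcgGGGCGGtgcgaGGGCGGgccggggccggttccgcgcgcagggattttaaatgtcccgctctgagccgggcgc
CDKN1B: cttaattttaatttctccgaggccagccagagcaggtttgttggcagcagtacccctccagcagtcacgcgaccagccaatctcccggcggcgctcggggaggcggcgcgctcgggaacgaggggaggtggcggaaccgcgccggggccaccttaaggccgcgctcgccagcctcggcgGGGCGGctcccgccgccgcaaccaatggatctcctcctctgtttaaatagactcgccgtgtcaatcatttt

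A full progesterone response element, the core ACANNNTGT with GN before it and NC after it, was searched on both strands and matched none of the 3 promoters. The core alone, which every full match contains, and the half-site TGTNCT, which can overlap it, matched none of them either. Among all 35116 promoters of the same length, 0.328% held the full element, 4.61% the core and 35.5% the half-site. GGGCGG occurred 4 times before the CDKN1A start, including an overlapping pair, 7 times before CCNE1 and 1 time before CDKN1B, and 42.6% of all promoters held it. Among the 2154 promoters with a PR summit under P4 inside these 250 bases, 1.25% held the full element, 7.57% the core, 41.3% the half-site and 46.5% GGGCGG. The CDKN1A and CCNE1 promoters were 76.4% and 81.2% G or C, and CDKN1B was 64.4%, against a median of 58.0% over all promoters. GGGCGG was added to the motifs after the regions had been seen, and a match describes letters and not a bound site.

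The first comparison asked where PR lay around the 5 genes with and without P4. The PR lists had 21 regions in the 5 windows with vehicle and 60 with P4. CCND1 had 9 and 24, MYC 5 and 12, CCNE1 2 and 10, CDKN1A 4 and 13, and CDKN1B 1 and 1. All 5 of 5 genes had at least 1 PR region under each treatment, against 74.6% of protein-coding genes under vehicle and 90.5% under P4. In 4 of 5 genes there were more PR regions under P4, against 87.2% of protein-coding genes. The ratio over the 5 genes, 2.86, equalled that of the whole lists to 3 digits.

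**Figure D1:**
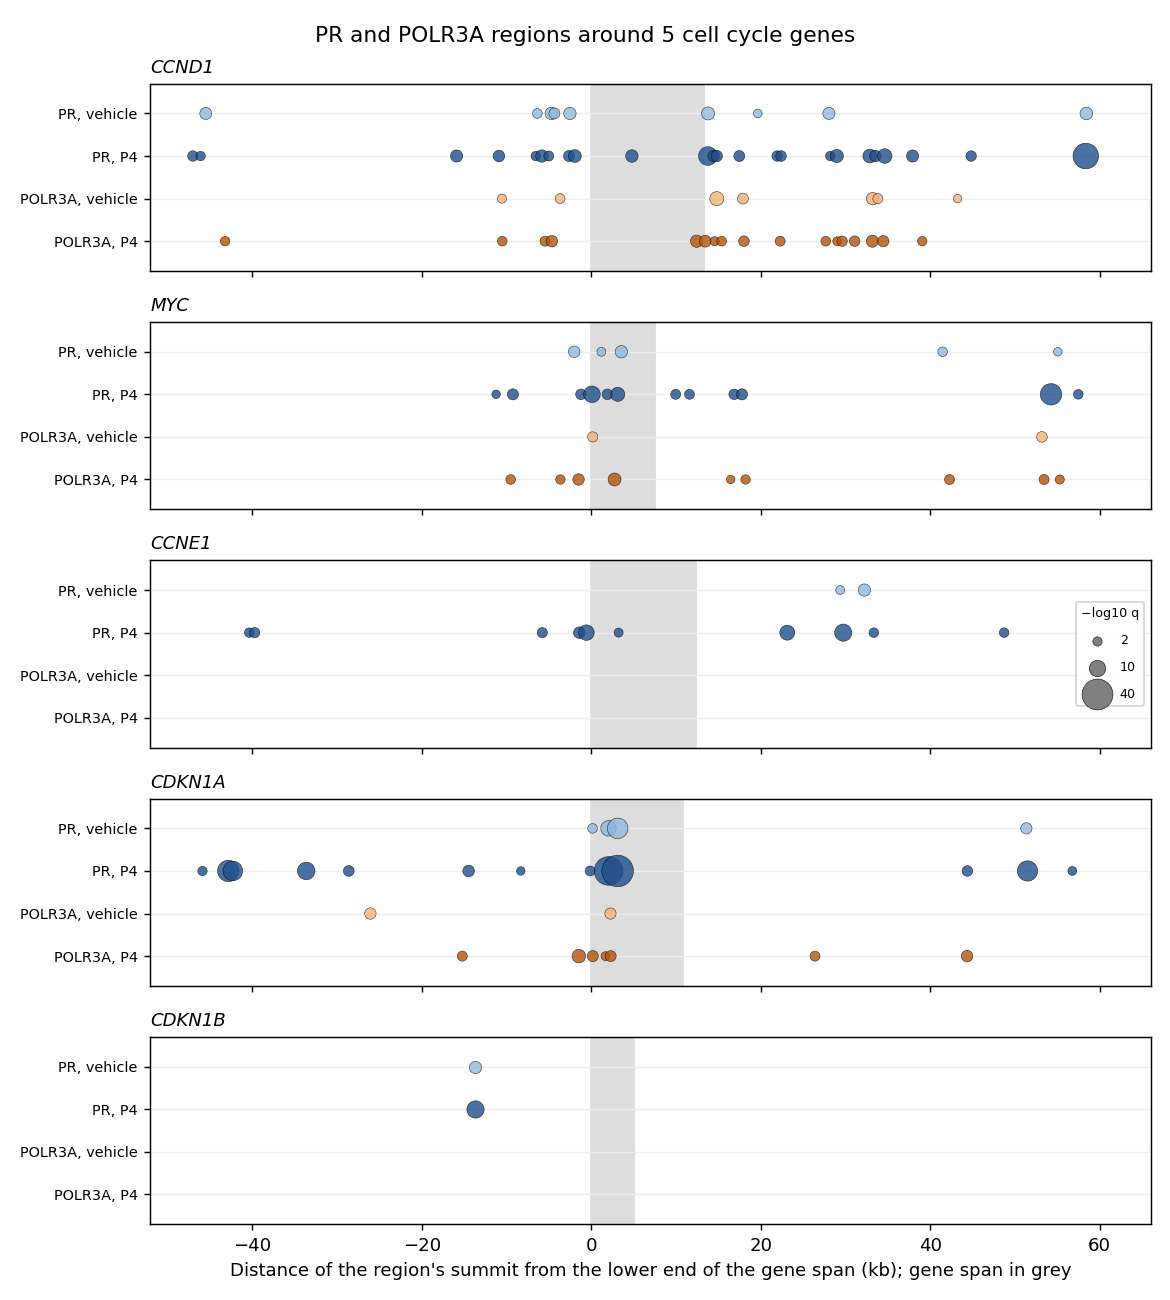
Summits of all regions in the 5 windows, by list (rows within a panel), against the distance from the lower end of the gene span in kb, with the gene span in grey and circle area increasing with −log10 q. PR under P4 is densest around CCND1 (24 regions), the largest circle is at CDKN1A, and CDKN1B has 1 PR region per treatment and no POLR3A region.

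Cutting the PR P4 list to the 38933 regions of the vehicle list by −log10 q turned the direction for the entry genes CCND1 and MYC. Then CCND1 had 9 vehicle and 3 P4 regions of PR and MYC 5 and 2. The other genes kept theirs, with 2 and 3 for CCNE1, 4 and 6 for CDKN1A and 1 and 1 for CDKN1B, and the 5 windows together had 21 and 15. The cut removed P4 regions with a −log10 q under 7.39 while the vehicle list reached down to 1.31. At a −log10 q of at least 10, CCND1 and MYC each had 0 under vehicle and 2 under P4, CCNE1 0 and 1, CDKN1A 1 and 6, and CDKN1B 0 and 1.

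**Figure D2:**
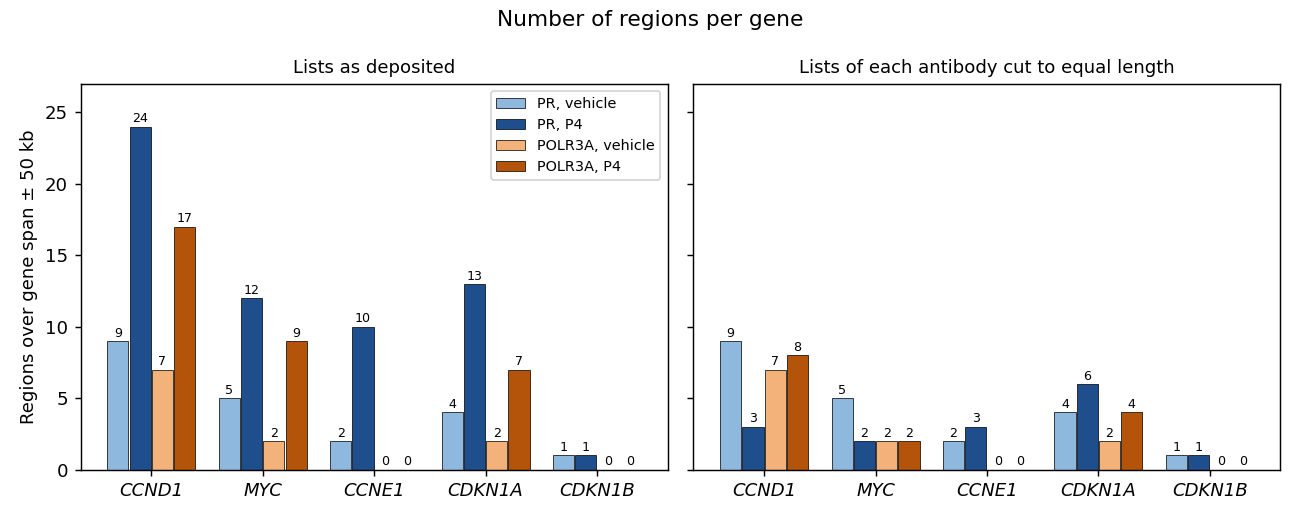
Number of regions in each gene's window (the span and 50 kb either way), in the lists as deposited (left) and with the 2 lists of each antibody cut to the length of the shorter (right); bars are counts, with no error since each group has 1 list. CCND1 goes from 9 and 24 PR regions to 9 and 3, while CDKN1A goes from 4 and 13 to 4 and 6.

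Per 100 kb of window, the order under P4 was CCND1 with 21.2 PR regions, CDKN1A with 11.7, MYC with 11.2, CCNE1 with 8.90 and CDKN1B with 0.952. The median of all protein-coding genes was 5.28. CCND1 lay at percentile 91.6 of that distribution, CDKN1A at 76.0, MYC at 74.5, CCNE1 at 67.1 and CDKN1B at 17.2. Under vehicle the order was CCND1 (7.94), MYC (4.65), CDKN1A (3.61), CCNE1 (1.78) and CDKN1B (0.952), against a median of 1.51. Both brake genes are thus far apart from each other, and CCND1 led in both lists. With 1 list per group, no spread is available to say which neighbours in these orders differ.

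**Figure D3:**
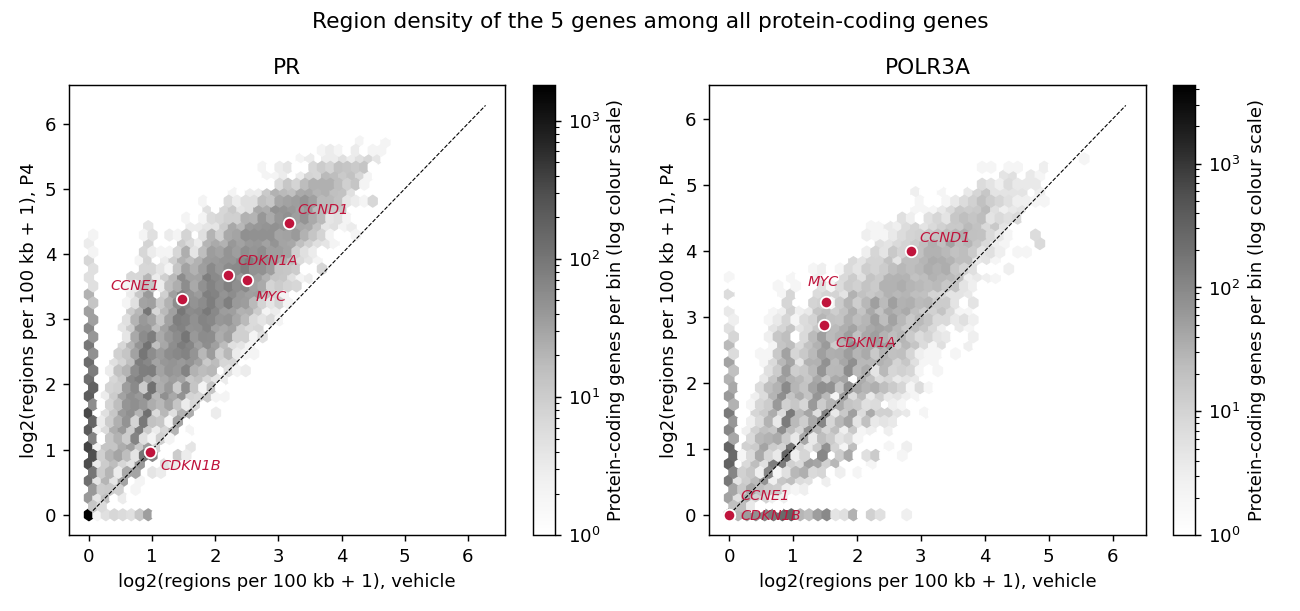
Regions per 100 kb of window on the scale log2(value + 1), vehicle on the x axis and P4 on the y axis, for PR (left) and POLR3A (right); grey bins count all 19821 protein-coding genes, red points are the 5 genes, and the dashed line marks equal values. CCND1 sits highest of the 5 in both panels, CDKN1B lies on the line for PR, and CCNE1 and CDKN1B are at 0 for POLR3A.

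CDKN1A (p21; chr6:36676463-36687332) carried the strongest PR regions of the 5 genes in both lists. A region just inside the gene, chr6:36679215-36679765 under P4, had a −log10 q of 41.9 and a fold of 8.32, and ranked 10487th of the list, in its top 9.40%. Its vehicle counterpart, chr6:36679377-36679757, had a −log10 q of 16.7 and a fold of 6.37, in the top 21.4%. The summits lay 877 and 879 bp past the annotated start at 36678714, 2 bp apart.

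A second PR region lay over the CDKN1A start itself. It spanned chr6:36678342-36679019 under P4, with a −log10 q of 34.1 and a fold of 10.2, the highest fold of any region in the 5 windows, and chr6:36678115-36678804 under vehicle, with 8.59 and 4.39. Its summits lay 200 and 202 bp before the start, at bases 51 and 49 of the sequence printed above, upstream of all 4 GGGCGG matches, which begin 104, 94, 45 and 40 bases before the start. PR covered these 250 bases at 5.85% of the 34961 promoters on chromosomes 1 to 22 and X under vehicle and 17.9% under P4. Among those covered, the CDKN1A region ranked at percentile 70.7 by −log10 q with vehicle and 86.5 with P4. The annotated start lies inside the gene span, because other transcripts of CDKN1A begin further upstream, and the noncoding gene DINOL, read from the opposite strand, begins at 36678559, so a region here cannot be assigned to 1 of the 2 genes.

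**Figure D4:**
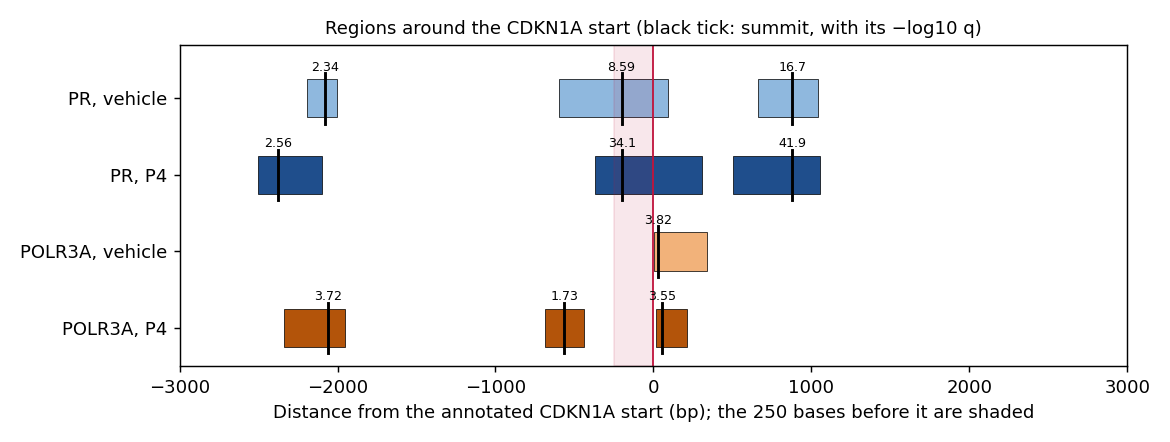
Regions of the 4 lists within 3 kb of the annotated CDKN1A start, as bars against the distance from the start in bp, with a black tick at each summit and its −log10 q above; the 250 bases before the start are shaded. PR summits fall 200 and 202 bp before and 877 and 879 bp after the start, while the POLR3A summits nearest to it lie 28 and 57 bp after it.

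The other PR regions of CDKN1A spread over its upstream flank under P4. All 4 vehicle regions were found again under P4, against 75.7% in the whole vehicle list. Of the 13 P4 regions 4 had a vehicle counterpart, against 25.8% in the whole P4 list, and 9 had none. The strongest of these 9 lay 42.81, 42.28 and 33.62 kb before the gene span, with −log10 q of 18.4, 15.0 and 11.8. These 3 regions stayed in the list when it was cut to the vehicle length. The P4 region 51.49 kb past the start of the span, inside the neighbouring gene RAB44, had a −log10 q of 16.2, and its vehicle counterpart 3.88.

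CDKN1B (p27; chr12:12717368-12722369) had a single PR site. It spanned chr12:12703512-12703769 under vehicle, with a −log10 q of 4.92 and a fold of 4.14, and chr12:12703465-12703832 under P4, with 11.4 and 5.66. The summits lay 13.69 and 13.76 kb before the start, inside GPR19, a receptor gene that neighbours CDKN1B, and 67 bp apart. No region of any list lay within 1 kb of a CDKN1B gene end. The P4 region ranked in the top 24.9% of its list.

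CCND1 (cyclin D1; chr11:69641156-69654474) had many PR regions, few of them inside the gene. Under P4, 9 summits lay before the gene, 1 inside it and 14 past it, and under vehicle 5, 0 and 4. No region of any list lay within 1 kb of the lower end of the gene, where CCND1 transcription begins. The nearest PR summits were 2.51 kb from it under vehicle and 1.92 kb under P4. The other end was covered: chr11:69654241-69655109 had a −log10 q of 13.7 and a fold of 5.82 under P4, and chr11:69654413-69655018 had 5.75 and 3.71 under vehicle, the strongest vehicle region of the window, with summits 19 bp apart.

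The strongest PR region of the CCND1 window under P4, chr11:69699151-69700004, lay inside FGF19, a growth factor gene, 58.37 kb from the lower end of CCND1. It had a −log10 q of 26.9 and a fold of 8.48, in the top 13.4% of the list, and its vehicle counterpart had 5.31 and 3.83. Of the 24 P4 regions, 5 had their summit inside another protein-coding gene, 4 of them in LTO1, as did 2 of the 9 vehicle regions. A region in the window is therefore near CCND1 and not assigned to it.

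A group of weak PR regions stood just before CCND1. Between 6.53 and 1.92 kb before the gene the P4 list had 5 regions, with −log10 q of 2.23, 5.07, 2.63, 3.61 and 5.55, and between 6.35 and 2.51 kb the vehicle list had 4, with 2.41, 5.09, 3.60 and 5.02. These values are at or below the list medians of 4.87 and 5.75, apart from the 5.07 and 5.55 under P4. PR was thus called before CCND1 in both treatments, at low strength.

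MYC (chr8:127735434-127742951) had PR over its start under P4. The region chr8:127734832-127735800 had a −log10 q of 10.4 and a fold of 4.56, and its summit lay 97 bp past the lower end of the gene, where MYC transcription begins. The vehicle list had no region there, and its nearest summit was 1.21 kb away, with a −log10 q of 1.77. The strongest PR region of the window lay 54.26 kb past the lower end of the gene under P4 alone, with a −log10 q of 18.4 and a fold of 6.09. Of the 12 P4 regions 1 had a vehicle counterpart, against 25.8% in the whole P4 list. The summit of that P4 region was 703 bp from that of the vehicle region. The last P4 region, chr8:127792522-127793531, crossed the window's edge at 127792951. The noncoding gene CASC11, chr8:127700608-127733967, also lies in this window. PR regions over CASC11 numbered 1 under vehicle and 2 under P4, and POLR3A regions 0 and 3. A region in the window is therefore near MYC and not assigned to it.

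CCNE1 (cyclin E1; chr19:29811991-29824312) had 2 PR regions under vehicle, both past the gene, and 10 under P4. Under P4 the region nearest to its start was chr19:29811111-29811555, with a −log10 q of 8.92, a fold of 5.03 and its summit 561 bp before the start, outside the bases printed above. The vehicle list had no summit closer than 29.38 kb. The strongest P4 region lay 29.75 kb past the start (−log10 q 11.2, fold 5.27) and overlapped a vehicle region of 1.77. CCNE1 and CDKN1A were the 2 of 5 genes whose PR regions under P4 were more than 3 times those under vehicle. This call needs at least 1 vehicle region, which all 5 genes and 14785 of the 19821 protein-coding genes had. Of those 14785, 6785 were called, which is 34.2% of all 19821.

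The second comparison asked how many regions were called in both treatments. For PR, 13 of the 60 regions called under P4 had a vehicle region at the same place, 21.7% (95% exact binomial interval 12.1 to 34.2), against 25.8% in the whole list. In the other direction 13 of 21 vehicle regions did, 61.9% (38.4 to 81.9), against 75.7%. These intervals cover counting error over regions only, and regions of 1 gene share their window. The 13 P4 regions with a counterpart had a median −log10 q of 11.2 and the 47 without one 3.63, against 23.6 and 3.98 in the whole list. Over the 13 pairs the summits were a median of 136 bp apart, with a range of 2 to 703 bp. The −log10 q was higher in the P4 list for 9 of these 13 pairs, but for only 2 of 6 at CCND1. For POLR3A it was higher for 1 of 5 pairs. As the lists differ in length, these counts measure no change in binding.

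Each gene had few vehicle PR regions, and whether the genes differ in this share was not tested. CDKN1A had a counterpart for 4 of 4 vehicle PR regions, CDKN1B for 1 of 1, CCND1 for 6 of 9, CCNE1 for 1 of 2 and MYC for 1 of 5. The whole-list share was 75.7%. The exact binomial intervals were wide, with 39.8 to 100% at CDKN1A and 0.505 to 71.6% at MYC. They cover counting error only and do not settle whether genes differ. The share rested on the overlap required: with a reciprocal overlap of at least 50%, 7 of the 60 P4 and 7 of the 21 vehicle regions were shared.

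The third comparison was of POLR3A, a subunit of the polymerase that transcribes tRNA and other small RNA genes; none of the 5 genes is of that kind. POLR3A regions in the 5 windows numbered 11 with vehicle and 33 with P4, a ratio of 3.0 against 1.64 for the whole lists. CCND1 had 7 and 17, MYC 2 and 9, CDKN1A 2 and 7, and CCNE1 and CDKN1B had 0 and 0. Under vehicle 3 of 5 genes had a POLR3A region, against 68.7% of protein-coding genes, and under P4 3 of 5, against 71.9%. More POLR3A regions under P4 were found at 3 of 5 genes, against 51.3% of protein-coding genes, and no POLR3A region in either list at 2 of 5, against 21.8%. With both POLR3A lists at 29161 regions the counts were 11 and 14, with 7 and 8 for CCND1, 2 and 2 for MYC and 2 and 4 for CDKN1A.

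No POLR3A region here came near the top of its list. The highest −log10 q was 6.88 under vehicle, at chr11:69655533-69656110 just past CCND1, in the top 15.6% of the list. Under P4 it was 6.34, at chr6:36674846-36675172, in the top 11.7%. That region overlapped PANDAR, a noncoding gene beside CDKN1A, and the pseudogene LAP3P2. The highest values in the whole lists were 629.5 and 591.9. At a −log10 q of at least 10 none of the 5 windows held a POLR3A region. For CCNE1 the nearest POLR3A summit was 86.12 kb from the start under vehicle and 126.11 kb under P4, and for CDKN1B it was 210.97 and 276.02 kb away.

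POLR3A regions lay just past the annotated start of CDKN1A and just past the lower end of MYC. At CDKN1A, regions chr6:36678720-36679049 under vehicle and chr6:36678732-36678924 under P4 had −log10 q of 3.82 and 3.55, with summits 28 and 57 bp past the start. At MYC the vehicle region chr8:127735524-127735740 had a −log10 q of 2.84 and its summit 182 bp past the lower end of the gene. The P4 list had no region over the MYC start, and its strongest one, chr8:127738122-127738369 inside the gene, had 5.60.

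Within 1 kb of either gene end, PR was called at 2 of 5 genes under vehicle (CCND1 and CDKN1A) and 4 of 5 under P4 (all but CDKN1B), against 23.9% and 50.2% of protein-coding genes. POLR3A was called there at 1 of 5 under vehicle (MYC) and 3 of 5 under P4 (CCND1, MYC and CDKN1A), against 30.8% and 33.6%. The CDKN1A calls rest on weak regions at the lower end of its span, and not on those at its annotated start. Their −log10 q was 2.34 for PR under vehicle, 2.56 for PR under P4 and 3.72 for POLR3A under P4. The MYC call under P4 for POLR3A rests on a region with its summit inside CASC11.

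The fourth comparison asked whether PR and POLR3A shared sites near these genes. Under vehicle 1 of 11 POLR3A regions overlapped a PR region, 9.09% (95% exact binomial interval 0.230 to 41.3), against 32.3% in the whole list. Under P4 16 of 33 did, 48.5% (30.8 to 66.5), against 50.5%. Of the 60 PR regions under P4, 16 overlapped POLR3A, 26.7% (16.1 to 39.7), against 20.9% in the whole list. With the PR P4 list cut to the 47904 regions of the POLR3A P4 list, 5 of the 33 POLR3A regions overlapped PR, 15.2%. The whole-list share was not computed at that length, so the 15.2% cannot be set against the 50.5%. The P4 overlaps fell at CCND1 (9 of 17 POLR3A regions), MYC (4 of 9) and CDKN1A (3 of 7).

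Merging overlapping regions of the 4 lists gave 85 sites, 35 at CCND1, 21 at MYC, 17 at CDKN1A, 11 at CCNE1 and 1 at CDKN1B. A single site was in all 4 lists, and it was the CDKN1A start, chr6:36678030-36679049. At 3 of 5 genes, CCND1, MYC and CDKN1A, each of the 4 lists had at least 1 region in the window, against 57.4% of protein-coding genes. There were 6 sites in 3 lists, 5 of them at CCND1 and 1 at CDKN1A. In a single list were 58 of the 85 sites, 33 of them PR under P4 and 14 POLR3A under P4. Regions were merged in the 5 windows only. Whether sites in 1, 3 or 4 lists are more or less frequent here than elsewhere is therefore unknown.

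The other genes of the G1 machinery were taken from a list of 33, written with earlier results of these data known. More PR regions under P4 than under vehicle were found at 30 of 33, against 87.2% of protein-coding genes, with fewer at 0 and as many at 3. More POLR3A regions were found at 18, against 51.3%, with fewer at 6 and as many at 9. Both counts lie near the share over all genes. The median gene of the list had 3 (vehicle) and 9 (P4) PR regions and 2 POLR3A regions in each list, against 2, 8, 2 and 2 over all protein-coding genes. A PR region lay within 1 kb of a gene end at 21 of 33 under P4, 63.6%, against 50.2% of protein-coding genes, and at 9 under vehicle, 27.3%, against 23.9%. A POLR3A region lay there at 15 of 33 under each treatment, 45.5%, against 30.8% of protein-coding genes under vehicle and 33.6% under P4.

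The 3 genes with the most PR regions under P4 were E2F1 with 48, E2F4 with 39 and CKS1B with 38, against 23, 13 and 18 under vehicle. E2F1 and E2F4 are transcription factors of the RB pathway, and CKS1B helps the ubiquitin ligase subunit SKP2 mark p27 for destruction. These genes also had many POLR3A regions, 44, 27 and 29 under P4, while CCND1 had 17. No PR region was listed under P4 at CCND2, CDKN2A or CDKN2B, which encode cyclin D2 and the inhibitors p16, p14ARF and p15. Among the G1 cyclins, CCND3 had 4 and 24 PR regions, CCNE2 1 and 14, and CCNA2 0 and 1. The remaining inhibitors CDKN2D, CDKN2C and CDKN1C had 3 and 13, 0 and 8, and 1 and 3.

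**Figure D5:**
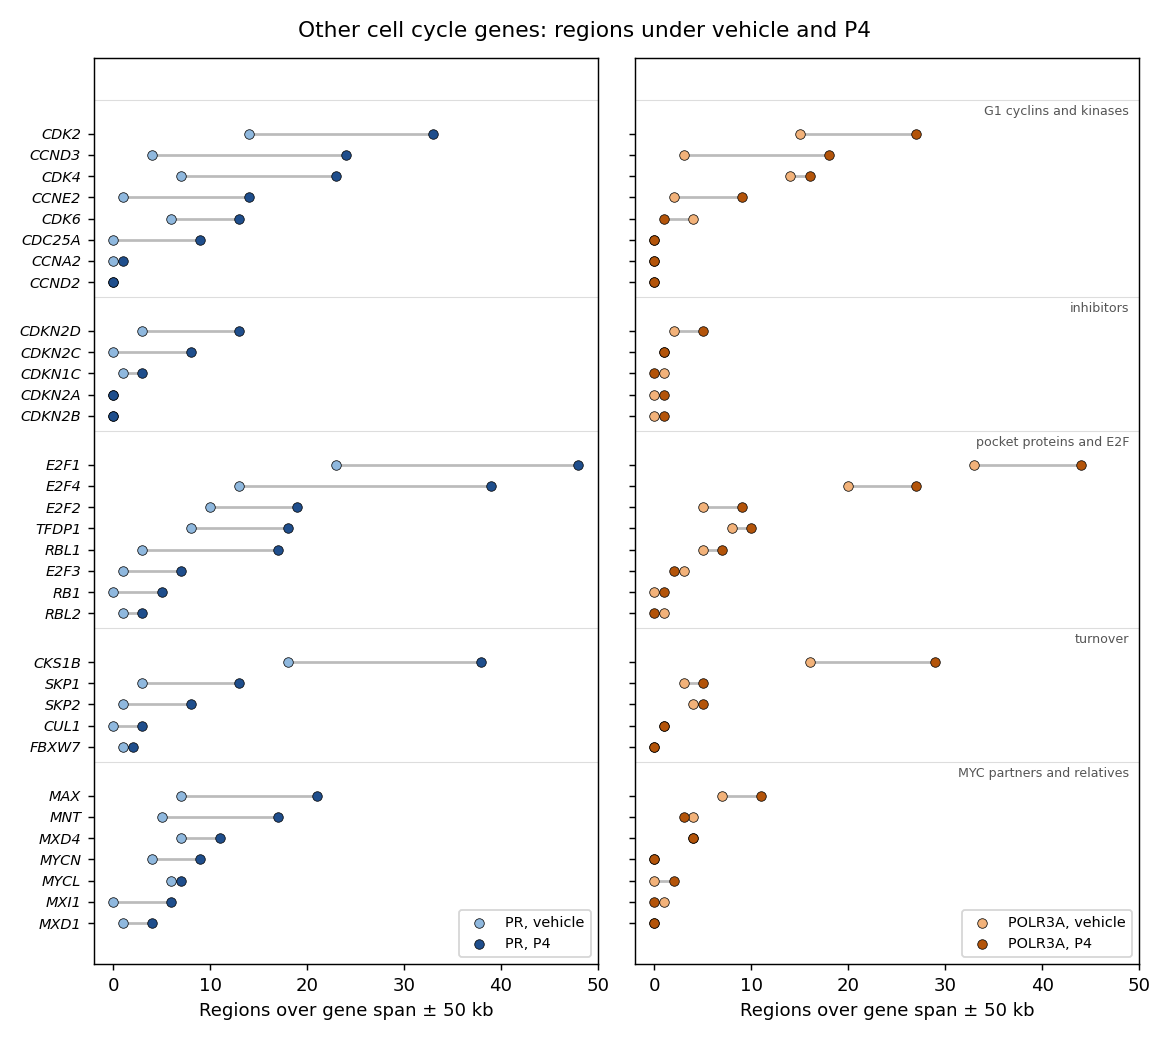
Regions in the windows (span and 50 kb either way) of 33 other cell cycle genes, PR on the left and POLR3A on the right, with a point for vehicle and a point for P4 joined by a line; genes are grouped by role. E2F1 has the most PR regions under P4 (48), and CCND2, CDKN2A and CDKN2B have 0.

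Genes with the nearest pattern were found by the Euclidean distance over the 4 lists of log2(regions per 100 kb + 1), among protein-coding genes whose windows do not overlap. For CCND1 they were LSG1, ABHD16B and MORN3 (distances 0.139, 0.157 and 0.157), and LSG1 had 10, 26, 8 and 21 regions in the PR vehicle, PR P4, POLR3A vehicle and POLR3A P4 lists. For MYC they were BMP4, LOC124903317 and WDR76 (0.184, 0.187 and 0.202), with 5, 13, 2 and 8 regions at BMP4 and, on the same chromosome, at LOC124903317. For CDKN1A they were ALG9, GIT1 and TP53I13 (0.110, 0.133 and 0.134), with 4, 14, 2 and 8 regions at GIT1 and, on the same chromosome, at TP53I13. For CCNE1 they were CILP2, MAGEA9B and PLXNB1 (0.0569, 0.0949 and 0.111), and CILP2 had the same counts as CCNE1. For CDKN1B they were RHOXF2B, HTR1A and ARMCX2 (all at 0.0040 to 0.0041), each with 1, 1, 0 and 0 regions.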

How the data were processed

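The ChIP-seq regions of PR and POLR3A in T47D cells came as 4 deposited peak lists, 1 per antibody and treatment, grouped by the sample titles. The submitters' processing notes name cutadapt, Bowtie2, MACS2 and the build hg38. How replicates were pooled and which control was used is not given in the sources used here. The authors' deposited columns are a score, a fold enrichment (a ratio), a −log10 q-value and the summit position. The fold, −log10 q and summit were used. The highest q-value was 0.0497. Depth is unknown.

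Genes came from the RefSeq table of GRCh38.p14, up to the point on each chromosome where start positions first fell back, which leaves out alternate sequences. Regions were counted where they overlapped a window by at least 1 bp, and 2 regions were shared when they overlapped by at least 1 bp. Intervals are exact binomial (Clopper-Pearson, scipy 1.17.1). The overlap counts were checked with bedtools 2.31.1 and were equal in 2 of 2 comparisons, and all planted overlaps were recovered in 20 of 20 simulated lists.

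All 5 members were named, with their strongest region in each list, regions at gene ends, sites in all 4 lists, neighbours, the 3 genes nearest in pattern, and of the other cell cycle genes the 3 with the most PR regions under P4 and those with none. Further genes and regions were named after their values had been seen. The members and lists were chosen with earlier results of these data known. Response elements were searched in promoters only, since no genome sequence was used. The alternatives tried were minimum −log10 q values of 5 and 10, equal list lengths, windows of 10 or 100 kb, summits in place of regions, and a reciprocal overlap of 50%.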

Additional observations from a re-analysis of the deposited data

How the results depend on the processing

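No paired analysis was possible because each group has 1 peak list and no value per replicate, so no replicate could be left out either. The counts of 21 and 60 PR regions and 11 and 33 POLR3A regions moved with both minimum −log10 q values and both other windows, while equal list lengths moved the P4 counts alone and counting summits in place of regions moved none of the 4. At a −log10 q of at least 5 they were 6 and 21 for PR (P4 minus vehicle 15) and 1 and 2 for POLR3A (difference 1), and at 10 or more 1 and 12 (11) and 0 and 0 (0). With 10 kb on each side they were 12 and 28 (16) and 5 and 17 (12), and with 100 kb 36 and 114 (78) and 23 and 61 (38). With lists of equal length the P4 counts fell to 15 for PR and 14 for POLR3A, with 21 and 11 under vehicle, so that the PR difference of 39 became -6 and the POLR3A difference of 22 became 3. The PR difference turned from 15 to -6 at CCND1 and from 7 to -3 at MYC, and the POLR3A difference at CCND1 turned from 10 to -1 with the minimum −log10 q at 5. The cut takes regions from the P4 list alone.

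The share of vehicle PR regions found again under P4, 61.9%, was 100% at a −log10 q of at least 10 (1 of 1), 33.3% with equal lengths and 33.3% with reciprocal overlap. The share of P4 PR regions, 21.7%, was 8.33%, 46.7% and 11.7% under these settings. The POLR3A shares of 45.5% and 15.2% were 0% with the minimum −log10 q at 5, where 1 vehicle and 2 P4 regions were left. The share of POLR3A regions that overlap PR under vehicle, 9.09%, was 0% at a −log10 q of at least 5 (0 of 1) and 0% with reciprocal overlap. Under P4 the share of 48.5% was 15.2% with equal lengths, 70.6% with 10 kb on each side and 18.2% with reciprocal overlap. With the minimum at 10 no POLR3A region was left to give a share.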
